A study of Arabidopsis thaliana with 8 samples.

Results

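The plastid genome of Arabidopsis thaliana encodes core subunits of the complexes that carry electrons through the thylakoid membrane. The genes described here were all those encoded on the plastid genome whose symbol starts with psb (photosystem II), psa (photosystem I), pet (cytochrome b6f complex) or ndh (NDH complex), each read from a probe set assigned to that gene alone. There were 36 such genes among 13356 genes with a probe set of their own, and among 69 measured plastid genes. They comprised 15 psb, 5 psa, 6 pet and 10 ndh genes, each with 1 probe set. RefSeq lists 37 symbols of these families, and the other one, ndhB, has a probe set assigned to both of its copies.

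Seedlings were raised in vitro in long days at 22 °C until they were 3 weeks old. Heat-stressed plants then spent 30 h at 37 °C, starting in the light phase, while mock plants remained at 22 °C. RNA was taken from mock and heat plants directly after the stress (day 0) and from mock and heat plants after 2 days of recovery at 22 °C (day 2). Each of the 4 groups had 2 biological replicates, 8 Affymetrix arrays in all, and no ecotype, mutation or transgene is given in the sources used here. The RNA came from bulk seedlings, so fewer cells of a type and less RNA per cell cannot be told apart.

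Photosystem II takes electrons from water, the cytochrome b6f complex passes them on through the carrier plastocyanin, and photosystem I lifts them to ferredoxin. The NDH complex returns electrons from ferredoxin to the plastoquinone pool, a cyclic route around photosystem I. Most plastid genes are transcribed as clusters into long RNAs that are then cut and trimmed, and the nucleus supplies the remaining subunits, the antenna proteins and the RNA-processing factors.

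All values below are log2 array signals, and signals of different genes are not compared because each probe set has its own response. Signals under 2.3 were read as the floor. The array medians ran from 5.04 to 5.11 and replicates correlated at 0.995 to 0.996 across probe sets. Of the 36 genes, 32 reached 4 on at least 2 arrays. The other 4 could not be followed: petD, petG and ndhF lay between 2.18 and 2.57 on all arrays, and psbN read 3.48 on 5 arrays and at most 4.23. Of the shoot markers only RCA, which encodes rubisco activase, was measured, at 14.15 ± 0.04 in day 0 mock and 13.58 ± 0.09 in day 0 heat (SD, n = 2). Among 3 measured root markers PYK10, a root beta-glucosidase, read 11.61 ± 0.45 and 8.90 ± 0.16, while EXPA7 and EXPA18 were at the floor on all arrays.

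Directly after the stress, 11 of the 36 genes were called lower in heat than in mock plants, 3 were called higher (petN, psbH and petB) and 22 were not called, at an adjusted p under 0.05. The median change was -0.51, with 31 changes below 0 and 5 above. Of all 22746 probe sets tested, 41.0% were called (21.2% higher and 19.8% lower) with a median of 0. The called share of the 36 genes, 38.9%, was thus near the background. The downward share was 30.6% against 19.8%. Both heat arrays lay below both mock arrays for 27 genes, of which petD was at the floor, and above them for 3 genes. Over all probe sets these shares were 29.5% below and 30.2% above. The lower median was seen in photosystem II (-0.39), photosystem I (-0.66) and the NDH complex (-0.61). Among the 6 cytochrome b6f genes 2 were called higher and 1 lower, and petD and petG, at the floor, are the middle values of the family, so its median is not given.

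**Figure D1:**
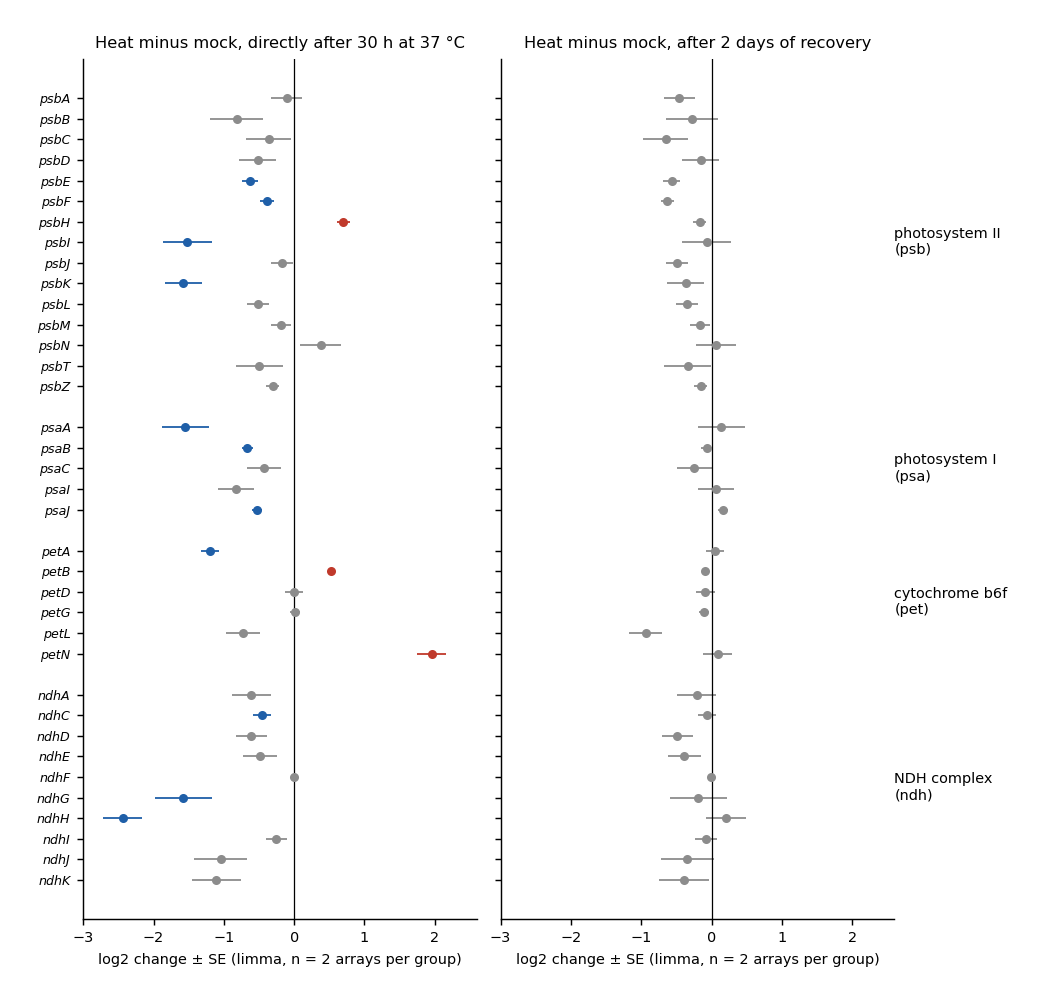
Log2 change ± SE of the 36 genes, heat minus mock, at day 0 (left) and day 2 (right), by complex. Red points were called higher, blue points called lower and grey points were not called, with 14 coloured points at day 0 and 0 at day 2.

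Photosystem II had 4 called falls and 1 called rise among 15 genes. The largest fall was in psbK, a small intrinsic subunit of the core, with 8.30 and 8.39 in the 2 mock arrays and 6.81 and 6.73 in the heat arrays. That is a fall by 1.58 ± 0.26 (SE, adjusted p = 0.00999), 2.98-fold. Its neighbour psbI, another small core subunit, read 9.82 and 9.93 in mock and 8.49 and 8.22 in heat, a change of -1.52 ± 0.35 (adjusted p = 0.0276). In both genes the day 2 mock replicates lay farther apart, at 8.90 and 8.13 for psbK and 10.40 and 9.42 for psbI.

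The genes psbE and psbF encode the alpha and beta subunits of cytochrome b559, a heme protein next to the reaction centre. Signals of psbE were 11.98 and 11.80 in mock and 11.28 and 11.23 in heat, a change of -0.63 ± 0.11 (adjusted p = 0.0130). Those of psbF were 13.19 and 13.12 in mock and 12.81 and 12.72 in heat, a change of -0.39 ± 0.09 (adjusted p = 0.0316). The falls were small, 1.55-fold and 1.31-fold.

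In the opposite direction moved psbH, a small phosphoprotein of the core. It read 11.44 and 11.21 in mock and 12.08 and 11.97 in heat, a rise of 0.70 ± 0.09 (adjusted p = 0.00494), 1.62-fold. The other 10 psb genes were not called. Among them psbA, which encodes the rapidly replaced D1 protein of the reaction centre, had a change of only -0.11 ± 0.22, with 10.51 and 10.39 in mock and 10.30 and 10.39 in heat. For psbD, the gene of the partner protein D2, the change was -0.52 ± 0.26 (adjusted p = 0.219). The inner antenna genes psbB and psbC had changes of -0.82 ± 0.38 and -0.36 ± 0.32, neither called.

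Photosystem I had 3 called falls among 5 genes and no rise. Both reaction centre genes were among them. The gene psaA had 9.15 and 8.59 in mock and 7.41 and 7.24 in heat, a change of -1.55 ± 0.34 (adjusted p = 0.0228) or 2.92-fold. Its partner psaB had 13.52 and 13.55 in mock and 12.96 and 12.78 in heat, a change of -0.66 ± 0.08 (adjusted p = 0.00389). For psaJ, a small membrane subunit, the mock arrays read 11.08 and 11.07 and the heat arrays 10.57 and 10.53, a change of -0.52 ± 0.07 (adjusted p = 0.00552). The small subunit gene psaI (-0.83 ± 0.26, adjusted p = 0.0669) and psaC (-0.43 ± 0.24, adjusted p = 0.272), whose protein carries the terminal iron-sulfur clusters, were not called.

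The cytochrome b6f complex was the most divided. The gene petA, which encodes cytochrome f, read 11.67 and 11.35 in mock and 10.39 and 10.24 in heat and fell by 1.20 ± 0.13 (adjusted p = 0.00282), 2.29-fold. The gene petB, which encodes cytochrome b6, read 13.64 and 13.62 in mock and 14.17 and 14.14 in heat and rose by 0.52 ± 0.04 (adjusted p = 0.000733), 1.44-fold. Messages for the 2 large heme subunits of the same complex thus changed in opposite directions.

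The largest rise of all 36 genes was that of petN, a very small subunit that the complex needs for its assembly in tobacco. Its mock arrays read 3.81 and 3.39, a dim signal above the floor, and its heat arrays 5.77 and 5.35. The rise was 1.95 ± 0.21 (adjusted p = 0.00247), 3.87-fold. With all values under 4 set to 4 it was 1.56 and still called. The small subunit gene petL went the other way without being called (-0.73 ± 0.24, adjusted p = 0.0773), and petD and petG were at the floor.

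In the NDH complex 3 of 10 genes were called, all lower. The gene ndhH, which encodes a subunit of the arm that protrudes into the stroma, had the largest change of the 36 genes. It read 6.83 and 6.32 in mock and 4.29 and 3.99 in heat, a change of -2.44 ± 0.28 (adjusted p = 0.00310) or 5.42-fold lower. The membrane-arm gene ndhG read 6.52 and 5.86 in mock and 4.996 and 4.23 in heat, a change of -1.58 ± 0.41 (adjusted p = 0.0381). Replicates of ndhG differed by more than those of most genes here. For ndhC, also a membrane subunit, the values were 12.24 and 12.04 in mock and 11.67 and 11.69 in heat, a change of -0.46 ± 0.13 (adjusted p = 0.0461). The stromal-arm genes ndhK (-1.11 ± 0.35, adjusted p = 0.0697) and ndhJ (-1.04 ± 0.38, not called) had larger changes than ndhC but also a larger spread.

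Of the 14 calls, ndhH, petA, petB, petN, psaB and psaJ were called under all 15 alternative settings, and each of the other 8 was not called under at least 1. Those of ndhC and ndhG were absent under 9 settings each, psbF under 8, psbI under 6, psaA under 4, psbE under 3, psbK under 2 and psbH under 1. With the second day 0 heat array left out 7 of the 36 genes were called, with either day 0 mock array left out 8 or 9. When dim probe sets were left out 22 of the genes were called, while the background rose to 70.4% of 13849 probe sets.

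**Figure D2:**
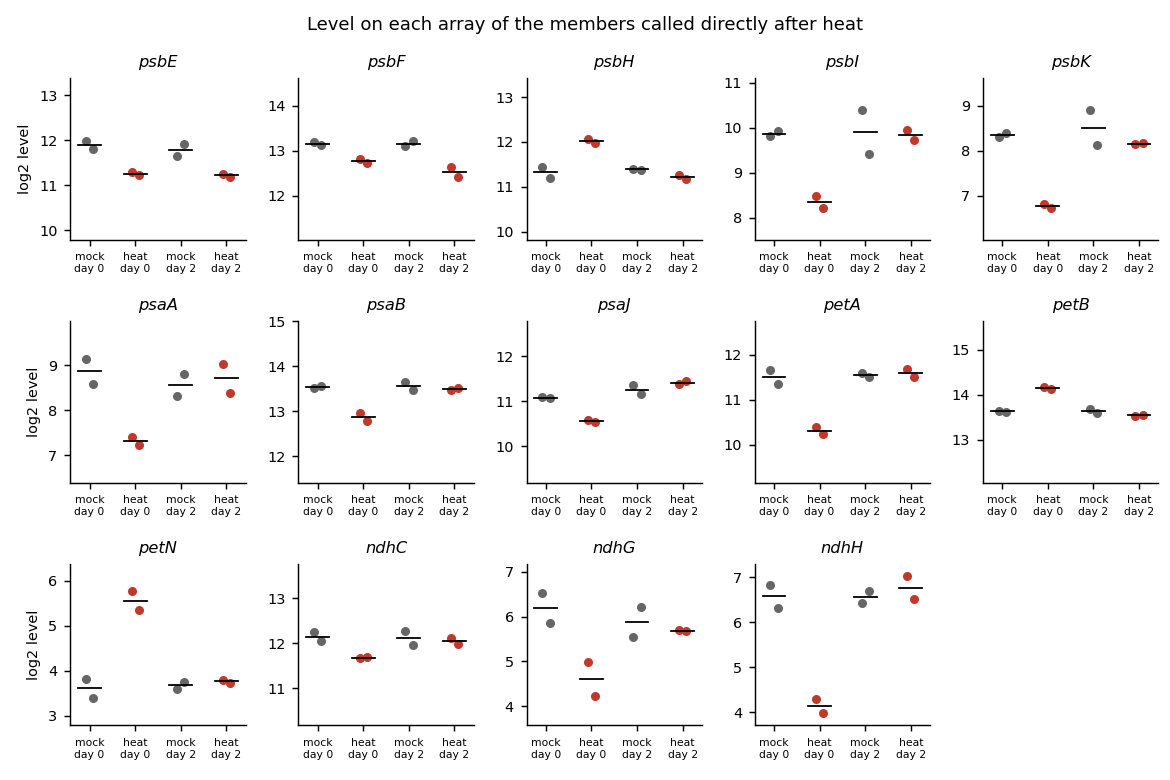
Log2 signal on each of the 8 arrays for the genes called at day 0, by group. Points are single arrays, 2 per group. The day 0 heat and mock arrays stand apart in all 14 genes, which were picked by their calls on these same arrays. The day 2 heat arrays of petN and ndhH overlap the day 2 mock arrays.

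Genes that are transcribed together were then set side by side. Each probe set has its own response, and its part in the differing sizes of change within a cluster was not tested. In the cluster psbB-psbT-psbH-petB-petD the changes spanned 1.51. The upstream genes psbB (-0.82) and psbT (-0.49) had negative values that were not called, and the downstream genes psbH (0.70) and petB (0.52) rose. At the end of this cluster petD, the subunit IV gene, was at the floor. In the cluster that runs from ndhH to ndhD and includes psaC all 7 changes were below 0. They ran from -2.44 for ndhH, the first gene, to -0.26 for ndhI, a range of 2.18, and ndhG (-1.58) was the other called gene. Within psbK-psbI the changes differed by only 0.06.

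The psbE-psbF-psbL-psbJ cluster ran from -0.63 for psbE to -0.17 for psbJ, the gene farthest from the others, and psbL (-0.52, adjusted p = 0.0598) was not called. In ndhC-ndhK-ndhJ the gene ndhC (-0.46) stood farthest from the others. In psbD-psbC-psbZ, 3 uncalled changes lay between -0.52 and -0.31. The genes petL and psaJ, at -0.73 and -0.52, share a cluster with petG, which was at the floor.

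In the accD-psaI-ycf4-cemA-petA cluster all 5 genes had negative changes. Of the genes outside the 4 families accD, which encodes a fatty acid synthesis enzyme, changed by -1.10 ± 0.30 (adjusted p = 0.0435), ycf4, a photosystem I assembly factor, by -1.29 ± 0.50 (adjusted p = 0.115) and cemA, an envelope membrane protein, by -1.49 ± 0.20 (adjusted p = 0.00466). The genes psaA and psaB are followed by the ribosomal gene rps14, which changed by -0.42 ± 0.14 without being called and had a dim signal. The median difference of the day 0 change between 2 genes of the same cluster was 0.35 over 43 pairs of the 32 measured genes, against 0.59 over the 453 other pairs. At day 2, where no gene was called, the medians were 0.20 and 0.27. The cluster from ndhH to ndhD, the largest, gives the most of the same-cluster pairs. These pairs share genes and arrays, so the medians are given as a description.

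**Figure D3:**
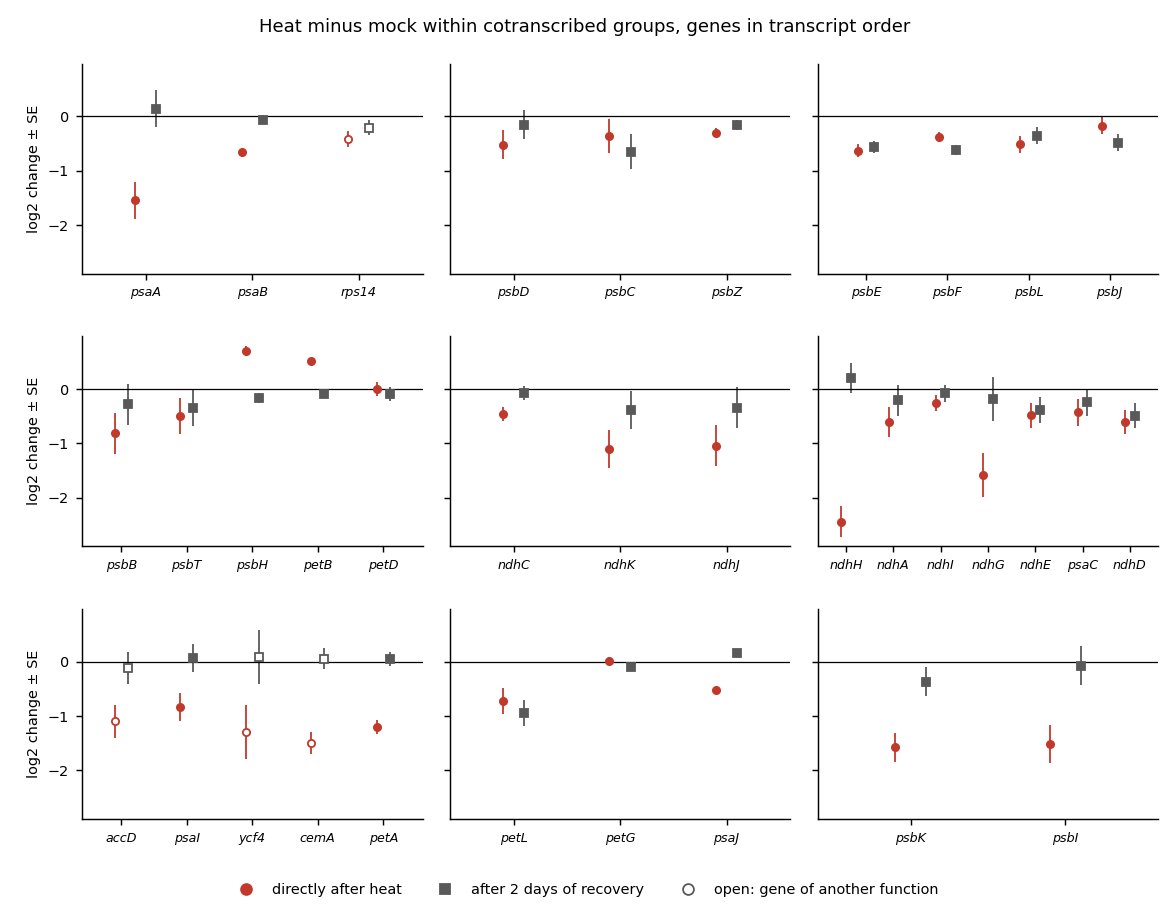
Log2 change, heat minus mock, of the genes in each cotranscribed cluster at day 0 (red circles) and day 2 (grey squares), with error bars of 1 SE. Open symbols are plastid genes outside the electron transport genes. At day 0 the psbB cluster changes direction between psbT and psbH, though psbB and psbT were not called. At day 0 ndhH lies lowest in its cluster.

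Changes of other gene groups were measured on the same arrays. Of 33 other plastid genes 12 were called, 11 lower and 1 higher, with a median of -0.38. They included cemA, ccsA, a cytochrome c assembly factor (-0.95 ± 0.15, adjusted p = 0.00801), and atpE, the epsilon subunit of ATP synthase (-0.33 ± 0.05, adjusted p = 0.00858). The one that rose was rps16 (0.92 ± 0.22, adjusted p = 0.0297), a ribosomal protein gene. A lower median was thus also seen outside the electron transport genes.

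Nuclear genes of the photosystems, the antenna, cyclic flow and the plastid ATP synthase were represented by 11 genes with a median of -1.33, of which 8 fell, 2 rose and 1 was not called. The antenna gene LHCB4.2 fell by 3.64 ± 0.11 (adjusted p = 0.000119), PSBY, a small photosystem II subunit, fell by 1.76 ± 0.06 (adjusted p = 0.000135) and PSAE-1, a stromal photosystem I subunit, fell by 1.68 ± 0.06 (adjusted p = 0.000156). The 2 that rose were PGRL1B, a cyclic electron flow factor (1.64 ± 0.09, adjusted p = 0.000379), and LHCB4.3 (2.09 ± 0.23, adjusted p = 0.00289). Of 5 nuclear factors of plastid RNA or NDH assembly, CRR21 and CRR22, RNA-editing factors of ndh transcripts, were called higher. CRR21 rose by 0.51 ± 0.10 (adjusted p = 0.0171). CRR22 was dim, with the same value of 3.70 on all arrays outside day 0 heat and 4.38 ± 0.23 there (adjusted p = 0.00858), so the size of its change is not given. CRR42, needed for assembly of the NDH complex, fell by 2.03 ± 0.17 (adjusted p = 0.00130). CRR28 and CRR41 were not called.

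**Figure D4:**
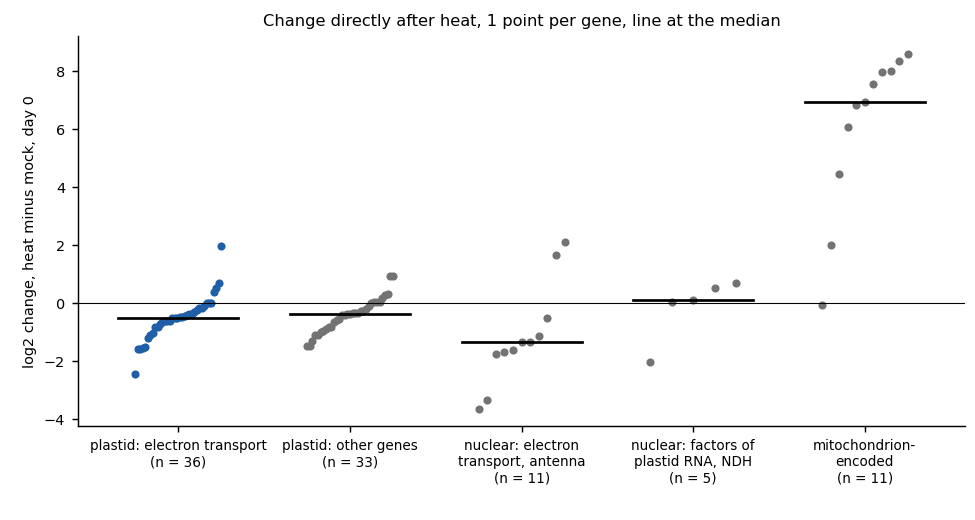
Day 0 log2 change, heat minus mock, of each gene in the 36 electron transport genes and in the comparison lists. Points are genes and short lines are medians (-0.51 for the electron transport genes, -0.38 for other plastid genes, -1.33 for nuclear electron transport and antenna genes and 6.95 for mitochondrion-encoded genes).

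Other measures moved with the heat at day 0. Of 11 genes matched to mitochondrion-encoded genes by symbol alone, 10 were called higher, with a median of 6.95. That median is nad1, a subunit gene of respiratory complex I, which read 4.29 ± 0.05 in mock and 11.24 ± 0.16 in heat (adjusted p = 0.000215). Others were dim in mock, and matR, a maturase gene, was at the floor there (2.18), so that its 8.25 ± 0.13 in heat gives only a minimum change. The control probe set for cytosolic 25S ribosomal RNA read 11.58 ± 0.21 in mock and 13.49 ± 0.11 in heat at day 0, and 11.74 ± 0.32 and 11.89 ± 0.14 at day 2 (SD, n = 2). The usual Affymetrix labelling for such arrays primes from poly(A) tails, which plastid messages and ribosomal RNA mostly lack. The 3′ minus 5′ signal of GAPDH, a measure of RNA ends, was 3.19 ± 0.04 in mock and 2.95 ± 0.22 in heat at day 0. For actin this measure was 6.30 ± 0.04 in day 0 heat and 6.06 ± 0.04 in day 0 mock. The 5′ probe set of actin, however, stayed between 5.47 and 5.50 on all arrays. The actin measure therefore only follows the 3′ signal, 11.77 in day 0 heat and 11.52 in day 0 mock, and does not inform on RNA ends. The part of RNA quality, priming and tissue makeup in the changes above was not tested.

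After 2 days at 22 °C none of the 36 genes was called, against 0.237% of all probe sets (0.132% higher and 0.106% lower). The lowest adjusted p was 0.108, and 4 genes (psbE, psbF, psbJ and petL) had an unadjusted limma p under 0.05. When dim probe sets were left out, 1 of 32 genes, psbF, was called lower (adjusted p = 0.0415), against 4.2% of 13849 probe sets called. The median change was -0.17. Both heat arrays were below both mock arrays for 15 genes, against 17.4% of all probe sets, and above them for 1 gene, psaJ, against 16.9%.

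The 4 genes of the cytochrome b559 cluster all had heat arrays below mock arrays at day 2. For psbF the mock arrays read 13.09 and 13.22 and the heat arrays 12.64 and 12.42, a difference of -0.63 ± 0.09 (adjusted p = 0.108). For psbE they read 11.64 and 11.93 against 11.24 and 11.19, a difference of -0.57 ± 0.11 (adjusted p = 0.165). The values of psbJ were 12.92 and 12.52 against 12.26 and 12.21, and the difference was -0.49 ± 0.15 (adjusted p = 0.312). For psbL the difference was -0.36 ± 0.16 (adjusted p = 0.482). Set beside their day 0 changes, psbE differed by 0.63 then and 0.57 now, and the change of the heat effect over time was 0.06 ± 0.16 (adjusted p = 0.946). For psbF it was -0.24 ± 0.13 (adjusted p = 0.276). Neither was called, which does not show that the effect lasted.

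The largest day 2 difference was that of petL, with 6.55 and 5.98 in mock and 5.48 and 5.17 in heat, -0.94 ± 0.24 (adjusted p = 0.227). Of the genes with large called changes at day 0, the day 2 differences were 0.20 ± 0.28 for ndhH, 0.09 ± 0.21 for petN and 0.05 ± 0.13 for petA. They were -0.37 ± 0.26 for psbK, -0.19 ± 0.41 for ndhG, -0.07 ± 0.35 for psbI and 0.14 ± 0.34 for psaA. With these errors a full return is not shown for any of these genes. At day 2 ndhH read 6.42 and 6.70 in mock and 7.02 and 6.51 in heat, and petN read 3.60 and 3.74 in mock and 3.79 and 3.72 in heat. Both overlapped their mock arrays. Values of petA were 11.59 and 11.51 in mock and 11.68 and 11.52 in heat. The heat arrays of psaJ read 11.37 and 11.45, just above the mock arrays at 11.35 and 11.15.

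The difference between the day 2 and day 0 effects of heat was tested as an interaction. It was called for 7 of the 36 genes, 4 higher and 3 lower, against 32.3% of all probe sets (15.4% higher and 16.9% lower). In ndhH, petA, psaJ and psaB the effect was more positive at day 2, by 2.64 ± 0.40 (adjusted p = 0.00991), 1.24 ± 0.19 (adjusted p = 0.0102), 0.68 ± 0.10 (adjusted p = 0.0101) and 0.60 ± 0.12 (adjusted p = 0.0211). In petN, psbH and petB, the genes that had risen, it was more negative, by -1.86 ± 0.29 (adjusted p = 0.0114), -0.87 ± 0.13 (adjusted p = 0.0105) and -0.61 ± 0.05 (adjusted p = 0.00206). The call for psaB was absent under 6 of 14 alternative settings, and those of the other 6 were made under all 14.

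In stressed plants over the 2 days of recovery 11 of the 36 genes were called, 8 higher and 3 lower, against 39.9% of all probe sets (19.1% higher and 20.9% lower). This comparison shares the day 0 heat arrays with the first one, so its values are given only side by side. The rises were largest in ndhH (2.63 ± 0.28, adjusted p = 0.00257), psbI (1.49 ± 0.35, adjusted p = 0.0300) and psaA (1.39 ± 0.34, adjusted p = 0.0326), followed by psbK (1.38 ± 0.26), petA (1.28 ± 0.13), psaI (0.99 ± 0.26), psaJ (0.86 ± 0.07) and psaB (0.62 ± 0.08). The falls were in petN (-1.80 ± 0.21, adjusted p = 0.00326), psbH (-0.80 ± 0.09, adjusted p = 0.00335) and petB (-0.61 ± 0.04, adjusted p = 0.000507). The calls of psaA, psaI, psbI and psbK were absent under 4 to 7 of the 15 alternative settings. Without the second day 0 heat array 7 genes were called.

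Unstressed plants gave the background of these changes. Between the day 0 and day 2 mock plants none of the 36 genes was called and none had an unadjusted limma p under 0.05, against 0.0791% of all probe sets called (0.044% higher and 0.0352% lower). The median change was 0.04 and single changes ran from -0.31 for ndhG to 0.31 for petL.

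Replicates were not fully alike in these genes. In day 0 mock, replicate 1 was the higher one for 28 of the 32 measured genes, in day 0 heat for 26 and in day 2 heat for 27, but in day 2 mock for 16. The median of replicate 1 minus replicate 2 was 0.26 in day 0 mock, 0.08 in day 0 heat, -0.01 in day 2 mock and 0.22 in day 2 heat, while over all probe sets it was 0. These genes thus shifted together between replicate samples by a median of up to 0.26, where the smallest called day 0 change was -0.39 for psbF, and they are not independent of one another.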

How the data were processed

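Total RNA of 3-week-old seedlings was labelled with biotin and hybridised to Affymetrix arrays, 2 per group, per the labels' protocols. Each probe set has 1 deposited value per array. These came from GCRMA, of no stated version, per the submitters' processing notes, a method that corrects background, normalizes between arrays and gives log2 values. The deposited log2 values had lost their decimal point (0 of 182480 held one). It was put back after the first digit, or after the second for values starting with 1. No value began with 16 to 20, so each had 1 reading as a log2 value, from 2.18 to 15.23. The log2 scale is therefore a reading of the numbers and the tool's name. Values under 2.3 (31.4%) were taken as the floor, and no further scaling was applied, which hides any shift common to all transcripts. The number of arrays limits the precision.

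After 64 control probe sets were removed, 22746 were fitted with limma 3.58.1 in R 4.3.3, with 1 mean per group on all 8 arrays (4 residual degrees of freedom). Contrasts were two-sided with moderated variances and Benjamini-Hochberg adjustment over all probe sets, called at adjusted p under 0.05. Errors of changes are standard errors from this fit. Where nothing says that replicates came from separate cultures, p measures only the spread between these samples. The script was tested on simulated data. A gene table gave 1 gene for 13513 probe sets, several for 503 and none for 8730, and 13436 matched RefSeq genes of TAIR10.1, used for names and organelles only. Mitochondrial genes were matched by symbol alone, so signal from any nuclear copy was not told apart. Cotranscribed clusters are those of general knowledge. Python 3.11.15, pandas 2.3.3 and matplotlib 3.10.9 were used.

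The genes, lists and clusters were chosen with earlier results of these data known. Genes named with full values were, per family and comparison, up to 3 called rises and 3 called falls with the largest change, all called genes where there were 5 or fewer, the gene farthest from the others in each cluster, and of other lists up to 3 per direction with the smallest p. The rule also asked for the highest and lowest mean signal of a family, left out here because signals of different probe sets are not compared. Further uncalled genes, and the psbE-psbF-psbL-psbJ values at day 2, were chosen after their values were seen. The mitochondrial list did not follow this rule: nad1 was given as its median and matR as a case at the floor. The alternatives were a replicate block, only the arrays compared, a filter at 4 on at least 2 arrays, a floor of 4, centring on bright probe sets, repeated quantile normalization, a trended robust variance and leaving out each array.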

Additional observations from a re-analysis of the deposited data

Results flagged for a closer look

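For 7 genes the heat effect differed between day 0 and day 2 in the interaction test of limma, adjusted over all probe sets. The day 2 effect minus the day 0 effect, in log2, was 2.64 for ndhH (adjusted p = 0.00991), 1.24 for petA (adjusted p = 0.0102), 0.68 for psaJ (adjusted p = 0.0101) and 0.60 for psaB (adjusted p = 0.0211). It was -1.86 for petN (adjusted p = 0.0114), -0.87 for psbH (adjusted p = 0.0105) and -0.61 for petB (adjusted p = 0.00206). In each of them the day 2 effect was nearer to 0 than the day 0 effect, for example -2.44 and 0.20 for ndhH and 1.95 and 0.09 for petN.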

How the results depend on the processing

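Called genes among the 36 were counted under each alternative, and the cause of the shifts below was not tested except where stated. With dim probe sets left out, which tests fewer probe sets, 22 genes (3 higher, 19 lower) were called at day 0, 1 (psbF, lower) at day 2 and 12 (9 higher, 3 lower) in the interaction, against 14, 0 and 7. The shares called of all 13849 probe sets were then 70.4% at day 0, 4.2% at day 2 and 59.6% in the interaction. Leaving out 1 array at a time gave 7 to 13 genes at day 0, 0 to 1 at day 2, 6 to 10 in the interaction, 0 to 2 between the mock groups and 7 to 10 in stressed plants over the recovery. The genes called at day 2 and between the mock groups in this way were petD and petG, both at the floor. For petD without the second day 2 mock array the interaction turned from -0.09 to 0.11 (adjusted p = 0.0108) and the mock change from 0.08 to -0.11 (adjusted p = 0.0485), and without the first they were -0.28 and 0.27. The median interaction of 0.16 ranged from 0.044 to 0.37 and the day 0 median of -0.51 from -0.66 to -0.36. Other settings kept the day 0 count between 12 and 15. Every gene had 1 probe set, so averaging probe sets changed nothing, and fitting only the arrays compared could not be applied to the interaction. Centring on bright probe sets shifted the median of all probe sets by at most 0.02 in size.

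The replicate numbers were not treated as pairs, since deviations of same-numbered arrays correlated between -0.15 and 0.20 over 11696 probe sets, although replicate 1 was the higher one for 26 to 28 of the 32 measured genes in 3 groups. With the replicate block 14 genes were called at day 0 (2 lost, 2 gained), 0 at day 2, 8 in the interaction, 0 between the mock groups and 11 over the recovery. Probe sets at the floor limit what can be read: petD, petG and ndhF gave no usable signal.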

Other observations

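The probe set assigned to both copies of ndhB, which encodes a membrane subunit of the NDH complex, read between 2.18 and 2.41 on all 8 arrays, at or near the floor. It was not counted among the 36 genes.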
